A study of Mus musculus with 24 samples.

Results

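The olfactory bulb is the relay between the olfactory epithelium and the olfactory cortex, and its astrocytes wrap synapses in the glomeruli, take up glutamate and GABA, and supply neurons with lactate, lipids and active thyroid hormone. NFIA belongs to the nuclear factor I (NFI) transcription factors, which in mammals are Nfia, Nfib, Nfic and Nfix. NFI proteins bind DNA as dimers at palindromes of the half-site TTGGC, and NFIA is known for switching neural precursors to the astrocyte fate, where it acts on genes such as Gfap. Described here are 6 RNA-seq libraries of astrocytes sorted from the olfactory bulb, chosen by title from the 24 libraries of the series: 3 labelled as NFIA knockout and 3 controls. The comparison asked how the transcripts of olfactory bulb astrocytes differ between these labels.

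The mice of the knockout label carried NFIAfl/fl, the inducible recombinase Aldh1l1-CreER and the reporter Aldh1l1-GFP, and the controls carried NFIAfl/fl with Aldh1l1-GFP and no recombinase. Both groups thus share the floxed Nfia alleles and the green fluorescent reporter, which is driven by the promoter of the astrocyte gene Aldh1l1 and was the basis of the sort. All were C57BL6 mice of 20 weeks. The groups thus differ in the recombinase transgene as well as in any loss of Nfia, and these cannot be told apart here. CreER needs an inducer to act, and any inducer or its schedule is not described in the labels used here. The other 18 libraries came from hippocampus, cortex and brainstem of the same 2 genotypes, 3 libraries a group. The labels do not say that the libraries came from separate animals, so the p-values measure only the spread between these libraries.

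Recovered reads per olfactory bulb library ranged from 4503269 to 9425474, and 15040 to 15434 genes had a value above 0. Rn45s, the gene of the ribosomal RNA precursor, made up 20.8% of reads in the library labelled knockout 3, against 2.14% to 3.33% in the other 5 libraries. With Rn45s removed and the libraries rescaled, 93 genes passed the test described below, against 92 with it. The scaling factor of the library labelled knockout 3 was 0.69912 with and 0.69911 without Rn45s. This scaling takes a median over genes, which a single gene hardly moves, so the counts do not speak to the quality of that library. With that library left out, 53 genes passed, 50 of them among the 92. Aldh1l1 had 1346, 1127 and 1183 normalised reads in libraries labelled knockout, against 992, 965 and 975 in controls. The 20 astrocyte markers, from Slc1a2 to Aqp4, summed to 375100 to 384160 normalised reads in libraries labelled knockout and to 373150 to 442700 in controls, and all 20 were tested. Markers of olfactory ensheathing cells, the glia of the olfactory nerve, summed to 45726 to 48320 in libraries labelled knockout and to 46957 to 53536 in controls.

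Nfia itself (mm10 chromosome 4, 97772734 to 98118874, plus strand) went against the label. It had 7476, 7932 and 8602 normalised reads in libraries labelled knockout, against 4040, 4548 and 4996 in controls. Every library labelled knockout lay above every control. The level was 1.77-fold higher (log2 fold change 0.82, SE 0.11, adjusted p = 0.000355). A gene total cannot show whether the floxed part of Nfia was missing from these transcripts, so the label could not be checked and the group is named here by its label only. The other NFI genes did not pass the test. Nfib had 2568, 3051 and 2513 normalised reads in libraries labelled knockout, against 1796, 2049 and 2357 in controls (log2 fold change 0.39, adjusted p = 0.214). Nfic and Nfix had log2 fold changes of 0.19 (adjusted p = 0.756) and 0.12 (adjusted p = 0.816).

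Of 11020 genes tested, 92 passed an adjusted p of 0.05 in limma, which is 0.835% of those tested. In libraries labelled knockout 47 were higher (0.426%) and 45 were lower (0.408%), and 50 of the 92 had an absolute log2 fold change of at least 1. The median log2 fold change was 0.82 among the genes that were higher and -1.21 among those that were lower, beside -0.00253 over all genes tested. The 3 libraries labelled knockout did not overlap the 3 controls in any of the 92, and the same held for 14.6% of all genes tested. When 1 library was left out in turn, 29 genes passed in all 6 fits, 13 higher and 16 lower. The number passing was 47, 45 and 53 without the library labelled knockout 1, 2 and 3, and 57, 53 and 149 without control 1, 2 and 3. With the other 18 libraries sharing 1 estimate of the spread, 11 passed.

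**Figure D1:**
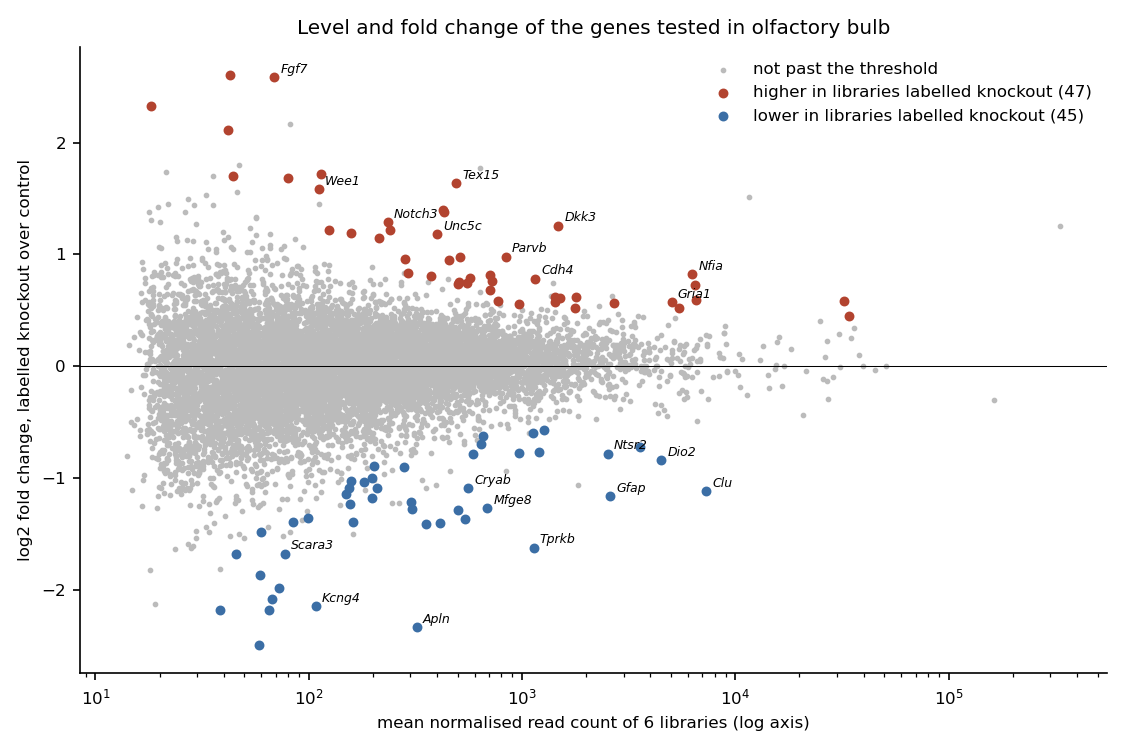
Each point is 1 gene tested, placed by its mean normalised read count in the 6 olfactory bulb libraries (log axis) and its log2 fold change, libraries labelled knockout over controls. The 47 genes that passed and were higher are red, the 45 that were lower are blue, and 20 of the 29 that passed in every fit with 1 library left out are named. The named genes reach from Kcng4 and Apln at log2 fold changes below -2 to Fgf7 at 2.59.

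The genes with the smallest p were Tprkb, Tex15, Dkk3, Apln and Gfap, all at an adjusted p of 3.32e-05. Tprkb encodes a subunit of the KEOPS complex, which modifies transfer RNAs. It had 446, 580 and 632 normalised reads in libraries labelled knockout, against 1355, 1961 and 1835 in controls, a 3.11-fold lower level (log2 fold change -1.62, SE 0.16). Apln encodes apelin, a secreted peptide that acts on vessels and neurons through its own receptor. It had 88.7, 74.3 and 157 normalised reads in libraries labelled knockout, against 446, 568 and 594 in controls, 5.03-fold lower (log2 fold change -2.34, SE 0.24). For both genes every library labelled knockout lay far below every control. Tex15, known from meiosis and transposon silencing in germ cells, had 653, 906 and 688 normalised reads in libraries labelled knockout and 212, 237 and 255 in controls (log2 fold change 1.64, SE 0.17). Its lowest library labelled knockout was above every control.

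The promoters of the 4 genes with the smallest p that passed in every fit with 1 library left out and had a sequence at hand are shown because the factor named in the label binds DNA. Each runs from 250 bases before to 50 after the RefSeq start on GRCm38.p6, 5′ to 3′ on the gene's strand, with the NFI half-site (TTGGC or its complement GCCAA) in capitals. They lie at chr6:85911665-85911964 (plus strand, Tprkb), chrX:48034804-48035103 (minus strand, Apln), chr11:102897151-102897450 (minus strand, Gfap) and chr7:79149011-79149310 (minus strand, Mfge8).
Tprkb: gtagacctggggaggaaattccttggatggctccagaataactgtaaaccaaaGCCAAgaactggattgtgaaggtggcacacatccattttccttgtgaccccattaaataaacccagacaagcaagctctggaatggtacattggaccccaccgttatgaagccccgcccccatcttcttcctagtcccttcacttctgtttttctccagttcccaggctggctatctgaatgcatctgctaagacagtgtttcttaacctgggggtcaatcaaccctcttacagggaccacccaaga
Apln: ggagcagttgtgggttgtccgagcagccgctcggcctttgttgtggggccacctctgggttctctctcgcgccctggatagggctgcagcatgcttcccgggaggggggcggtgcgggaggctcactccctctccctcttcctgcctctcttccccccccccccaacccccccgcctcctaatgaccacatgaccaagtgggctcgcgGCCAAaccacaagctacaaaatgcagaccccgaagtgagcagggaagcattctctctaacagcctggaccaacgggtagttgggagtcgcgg
Gfap: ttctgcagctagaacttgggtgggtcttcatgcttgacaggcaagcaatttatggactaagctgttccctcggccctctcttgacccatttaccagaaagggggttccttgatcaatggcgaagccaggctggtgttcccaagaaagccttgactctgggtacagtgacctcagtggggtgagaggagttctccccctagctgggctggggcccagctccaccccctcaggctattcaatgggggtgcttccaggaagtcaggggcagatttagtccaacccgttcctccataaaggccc
Mfge8: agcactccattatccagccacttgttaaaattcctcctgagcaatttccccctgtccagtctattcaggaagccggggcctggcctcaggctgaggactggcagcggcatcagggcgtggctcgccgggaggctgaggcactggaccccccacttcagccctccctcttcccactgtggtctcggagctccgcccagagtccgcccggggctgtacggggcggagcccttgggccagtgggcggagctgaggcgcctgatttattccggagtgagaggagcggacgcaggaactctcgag
Tprkb and Apln have 1 half-site each, with its first base 197 and 42 bases before the start, and the windows of Gfap and Mfge8 have 0. Promoters were at hand for 66 of the 92 genes that passed, of which 30 (45.45%) hold a half-site. Of all 27025 promoters at hand 47.03% hold one, and of the 8412 promoters of genes tested 50.21% do. The share was 35.29% among genes higher in libraries labelled knockout (12 of 34) and 56.25% among those lower (18 of 32). The palindrome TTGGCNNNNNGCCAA was found in 0 of the 66, against 11 of all promoters (0.0407%). Dkk3 and Tex15 are named here without a sequence.

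Astrocyte identity genes were mixed. Of 20 markers tested, Slc1a3 was higher and Gfap and Ntsr2 were lower in libraries labelled knockout, the other 17 did not pass, and the list median was a log2 fold change of -0.04. The share that passed was 15%, beside 0.835% of all genes tested. Gfap (mm10 chromosome 11, 102887336 to 102900912, minus strand), which encodes the cytoskeletal filament protein that defines many astrocytes, had 1805, 1412 and 1565 normalised reads in libraries labelled knockout, against 4103, 3241 and 3372 in controls. The groups were far apart (log2 fold change -1.16, SE 0.12, adjusted p = 3.32e-05). Vim, which encodes the partner filament protein vimentin, moved the other way, with 1802, 1732 and 1904 normalised reads in libraries labelled knockout and 1358, 1082 and 1140 in controls (log2 fold change 0.61, SE 0.12, adjusted p = 0.0191). The call on Vim was lost without any 1 of the libraries labelled knockout or without control 2. Of 7 intermediate filament genes tested, these were the only ones that passed. Ntsr2, the neurotensin receptor that astrocytes carry, had 1987, 1715 and 1852 normalised reads in libraries labelled knockout, against 3067, 3354 and 3133 in controls (log2 fold change -0.78, SE 0.11, adjusted p = 0.000713). Its 3 libraries labelled knockout were all below the controls.

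Among transporters, Slc1a3, which encodes the glutamate transporter GLAST, had 33921, 40544 and 41365 normalised reads in libraries labelled knockout, against 21403, 26534 and 30105 in controls (log2 fold change 0.58, SE 0.12, adjusted p = 0.0225). The gap between groups was narrow, and the call was lost without the library labelled knockout 2 or 3 or without control 1 or 2. edgeR gave Slc1a3 an adjusted p of 0.0515. The other main glutamate transporter gene, Slc1a2, had a log2 fold change of -0.30 (adjusted p = 0.13). In the list of glutamate uptake and the glutamine cycle 1 of 13 genes passed, beside 0.835% of all genes tested. Of 17 genes handling GABA, glycine and monoamines, Slc6a11 was higher and Gabbr2 lower. Slc6a11, the GABA transporter GAT-3, had 40465, 40658 and 36175 normalised reads in libraries labelled knockout, against 26811, 26652 and 32996 in controls (log2 fold change 0.45, adjusted p = 0.0331). Control 3 lay close to the lowest library labelled knockout, the call was lost without the library labelled knockout 1 or 2 or without control 1 or 2, and edgeR gave an adjusted p of 0.102. Gabbr2, a subunit of the GABA-B receptor, had 75.4, 55.6 and 143 normalised reads in libraries labelled knockout, against 242, 228 and 224 in controls (log2 fold change -1.40, adjusted p = 0.0198), lost under the same 4 omissions. Gabrg3, a GABA-A receptor subunit, was higher (log2 fold change 1.19, adjusted p = 0.0196), lost without any 1 of the libraries labelled knockout or without control 2. The AMPA receptor subunit Gria1 and its auxiliary protein gene Shisa9 rose together, by log2 fold changes of 0.57 (adjusted p = 0.00529) and 0.73 (adjusted p = 0.00129), and both passed in every fit with 1 library left out.

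Potassium and water handling, with Aqp4 and Kcnj10, had 0 of 16 genes past the threshold, beside 0.835% of all genes tested. Of 9 modifier subunits and partners of voltage-gated potassium channels, Kcng4 was lower. Kcng4, a subunit that is silent alone and alters the channels it joins, had 49.9, 23.6 and 38.9 normalised reads in libraries labelled knockout, against 217, 148 and 171 in controls. It was 4.76-fold lower (log2 fold change -2.15, SE 0.31, adjusted p = 0.000844), with no overlap.

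**Figure D2:**
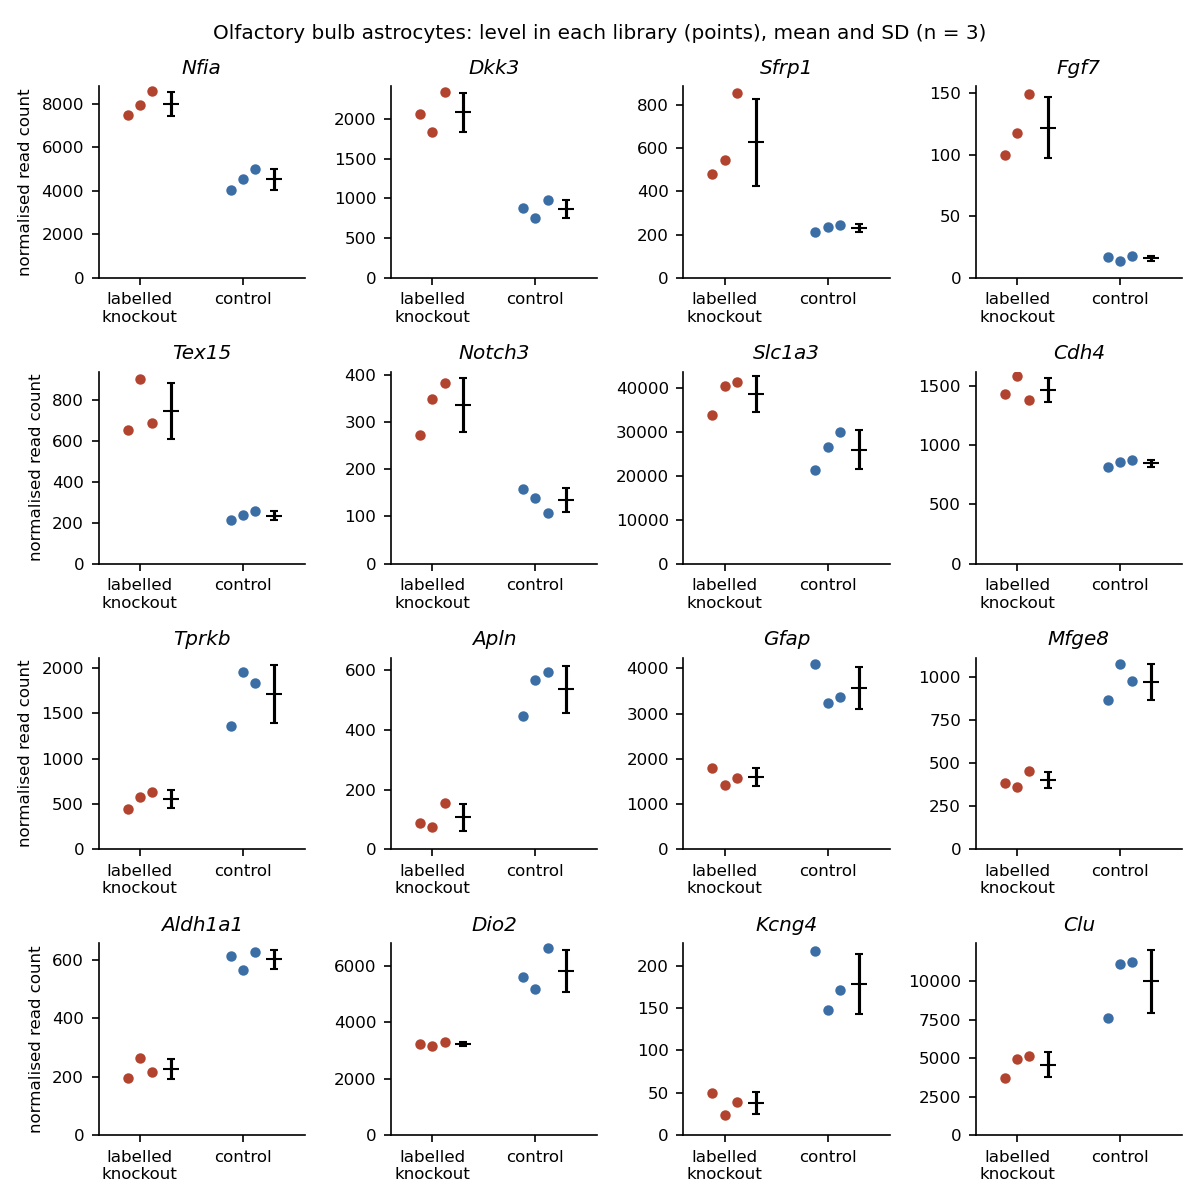
Normalised read counts of 16 genes in each olfactory bulb library (points), with the mean and SD of 3 libraries, libraries labelled knockout at left and controls at right. The y axis of each panel starts at 0. The 16 were picked from the 92 genes that passed, in all of which the 2 groups are separate, as they are in 14.6% of all genes tested. Slc1a3 has 33921 in its lowest library labelled knockout against a highest control of 30105. Fgf7, which entered the test through the libraries labelled knockout alone, has 99.9 against 17.5.

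In libraries labelled knockout, transcripts of 2 secreted proteins listed with the Wnt antagonists were higher. Of 5 Dickkopf and secreted Wnt antagonist genes tested, Dkk3 and Sfrp1 were higher and 3 did not pass. All 5 had a log2 fold change above 0 and the median was 0.46. Dkk3 (chromosome 7, 112116017 to 112159057, minus strand), a secreted glycoprotein of the Dickkopf family, had 2066, 1840 and 2335 normalised reads in libraries labelled knockout, against 874, 756 and 976 in controls. That is 2.40-fold higher (log2 fold change 1.26, SE 0.13, adjusted p = 3.32e-05). Sfrp1, which binds Wnt ligands outside the cell, had 482, 545 and 857 normalised reads in libraries labelled knockout, against 212, 234 and 246 in controls (log2 fold change 1.38, SE 0.20, adjusted p = 0.000844). The library labelled knockout 3 was the highest for both genes, and both passed without it. Frzb, a relative of Sfrp1, had 959, 874 and 547 normalised reads in libraries labelled knockout and 781, 657 and 723 in controls, which overlap (log2 fold change 0.10, adjusted p = 0.921). None of 19 Frizzled receptors and Wnt coreceptors and none of 21 Wnt ligands and intracellular Wnt genes passed, beside 0.835% of all genes tested.

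Fgf7, a ligand of the epithelial form of FGF receptor Fgfr2, had 99.9, 117 and 149 normalised reads in libraries labelled knockout, against 16.6, 13.7 and 17.5 in controls. It was 7.66-fold higher (log2 fold change 2.59, SE 0.34, adjusted p = 0.000358), and with every control under 20 it entered the test through the libraries labelled knockout alone. The same held for Rgs16 and Slc14a2, which also passed. Fgf7 was the only one of 20 FGF ligands, receptors and targets to pass, beside 0.835% of all genes tested. Fgf1, another ligand, had 725, 1272 and 1699 normalised reads in libraries labelled knockout, against 2444, 2294 and 2551 in controls, which do not overlap (log2 fold change -1.06, adjusted p = 0.261). DESeq2 gave Fgf1 an adjusted p of 0.000783. Of 21 Notch pathway genes, the receptor gene Notch3 was higher, with 272, 350 and 384 normalised reads in libraries labelled knockout, against 157, 140 and 107 in controls (log2 fold change 1.29, SE 0.21, adjusted p = 0.00445). Notch3 is also known from mural cells. The other 11 mural markers listed summed to 875, 926 and 1060 normalised reads in libraries labelled knockout, against 1436, 1241 and 698 in controls, and their part in the value of Notch3 was not tested. The BMP pathway had 0 of 18 genes past the threshold.

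In the lists of adhesion and guidance genes, those that passed were all higher in libraries labelled knockout. Over all genes tested, 0.426% passed and were higher. The list medians were 0.06 and -0.008, and 10 of 27 and 16 of 30 members were below 0. Of 27 adhesion genes, Cdh4, Cadm1 and Astn1 were higher and 24 did not pass. Cdh4, or R-cadherin, had 1427, 1578 and 1381 normalised reads in libraries labelled knockout, against 813, 856 and 871 in controls (log2 fold change 0.78, SE 0.12, adjusted p = 0.00201). Cadm1, a synaptic adhesion protein gene, and Astn1, which encodes astrotactin, had log2 fold changes of 0.62 and 0.52, both at an adjusted p of 0.0191. Their calls were less stable: Cadm1 passed in 2 and Astn1 in 1 of the 6 fits with 1 library left out, Cadm1 without the library labelled knockout 3 or without control 3, and Astn1 without control 3. Of 30 Slit, semaphorin, ephrin and netrin guidance genes, Unc5c and Epha4 were higher. The netrin receptor gene Unc5c had 483, 634 and 547 normalised reads in libraries labelled knockout, against 294, 203 and 231 in controls (log2 fold change 1.18, SE 0.18, adjusted p = 0.00157). Epha4, an ephrin receptor gene, had a log2 fold change of 0.82 (adjusted p = 0.0077), lost without the library labelled knockout 1 or 2 or without control 1. Semaphorin genes outside the list, chosen after their values were seen, went both ways: Sema5b was higher (log2 fold change 0.98, lost without the library labelled knockout 1) and Sema4d lower (-0.89, lost without any 1 library). Parvb, which encodes an integrin-linked actin adaptor, was also higher (log2 fold change 0.98, adjusted p = 0.000499) and passed in all 6 fits.

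In the lists of phagocytosis, complement and lipid export genes, Mfge8, Clu, Scara3 and C4b passed, all lower in libraries labelled knockout. Clu is in both the complement and the lipid export list. Over all genes tested, 0.408% passed and were lower. The list medians were -0.16, -0.27 and -0.07, and 6 of 14, 3 of 9 and 5 of 14 members were above 0. Mfge8, which bridges dying cells to the integrins of phagocytes, had 384, 365 and 456 normalised reads in libraries labelled knockout, against 866, 1075 and 981 in controls (log2 fold change -1.27, SE 0.15, adjusted p = 1.0e-04). All libraries labelled knockout lay well below all controls. Of 14 phagocytosis receptors and bridging proteins it was the only one to pass, and the receptor gene Megf10 had a log2 fold change of -0.15 (adjusted p = 0.83). Clu, or clusterin, a secreted chaperone that carries lipids and holds back complement, had 3680, 4914 and 5147 normalised reads in libraries labelled knockout, against 7624, 11119 and 11245 in controls (log2 fold change -1.12, SE 0.16, adjusted p = 0.00507). Scara3, a scavenger receptor gene, had 35.7, 35.4 and 31.4 normalised reads in libraries labelled knockout, against 126, 105 and 131 in controls (log2 fold change -1.68, adjusted p = 0.00635). Both sets of libraries were apart, and Clu and Scara3 were the 2 of 14 apolipoprotein and lipid export genes that passed. The complement component gene C4b had 299, 367 and 227 normalised reads in libraries labelled knockout, against 1095, 648 and 618 in controls (log2 fold change -1.36, SE 0.22, adjusted p = 0.00529). C4b has a near-identical neighbour, C4a, so reads could be split between them and its values are uncertain. With Clu it made 2 of 9 complement genes tested.

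Metabolic enzymes and hormone activators on the lower side each passed alone in their list. The share of all genes tested that passed and were lower was 0.408%. Dio2, which turns thyroxine into the active thyroid hormone, had 3216, 3141 and 3288 normalised reads in libraries labelled knockout, against 5604, 5187 and 6615 in controls (log2 fold change -0.84, SE 0.11, adjusted p = 0.000355). The libraries labelled knockout lay close together, all below the controls. Of 9 thyroid hormone genes it was the only one to pass, and the list median was -0.44. Slco1c1, a thyroid hormone transporter gene, had 159, 147 and 127 normalised reads in libraries labelled knockout, against 341, 409 and 166 in controls (log2 fold change -0.97, adjusted p = 0.154). Slco1c1 is also known from endothelial cells, whose 12 listed markers summed to 711 to 1202 normalised reads in libraries labelled knockout and to 484 to 2019 in controls, lowest in control 3. Aldh1a1, an enzyme that makes retinoic acid, had 197, 265 and 214 normalised reads in libraries labelled knockout, against 613, 565 and 627 in controls (log2 fold change -1.41, SE 0.17, adjusted p = 0.000134), and 9 other retinoic acid genes did not pass. Ppp1r3c, which brings a phosphatase to glycogen, was lower (log2 fold change -0.78, adjusted p = 0.00529), 1 of 25 genes of glycolysis, glycogen and lactate. Cholesterol synthesis had 0 of 25 genes past the threshold, with 19 above 0 and a median of 0.17.

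In the reactivity and heat shock lists, 33.3% of pan-reactive and 7.14% of heat shock genes tested passed, beside 0.835% of all genes tested. Of 9 pan-reactive astrocyte genes tested, Gfap and Serpina3n were lower, Vim was higher, and the list median was -0.69 with 8 of 9 below 0. Serpina3n, a protease inhibitor gene of a large multigene family, had 178, 256 and 108 normalised reads in libraries labelled knockout, against 378, 572 and 341 in controls (log2 fold change -1.27, adjusted p = 0.047). Its call was lost without the library labelled knockout 1 or 3 or without control 1 or 2, and edgeR gave an adjusted p of 0.0787. Of 11 A1-type and 5 A2-type reactive genes 0 passed, with 9 of 11 and 2 of 5 below 0. Of 14 heat shock genes, Cryab, a small heat shock protein gene, was lower, with 441, 308 and 319 normalised reads in libraries labelled knockout, against 941, 746 and 610 in controls (log2 fold change -1.09, adjusted p = 0.00452). The other 13 did not pass, and the median of the 14 was -0.14.

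Immediate early genes, which cells switch on within minutes of a stimulus and also during tissue dissociation, had 1 of 23 members past the threshold and 22 of 23 below 0, with a median of -0.81. The share past the threshold was 4.35%, beside 0.835% of all genes tested. Fos had 235, 342 and 277 normalised reads in libraries labelled knockout, against 826, 881 and 457 in controls (log2 fold change -1.28, SE 0.22, adjusted p = 0.01), a call lost without the library labelled knockout 1 or 3 or without control 2. Fosb had 142, 106 and 115 normalised reads in libraries labelled knockout, against 483, 267 and 134 in controls (log2 fold change -1.08, adjusted p = 0.299). The summed level of the 25 genes listed was 2614, 2705 and 2700 in libraries labelled knockout, against 6613, 5476 and 3309 in controls. Control 3 was the nearest to the libraries labelled knockout.

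Microglia, the immune cells of the brain, were looked for through their markers. Of 20 microglia markers 0 passed in limma, beside 0.835% of all genes tested. However, 19 of the 20 markers were below 0 and the median was -0.86. Their summed level was 3708, 3092 and 2957 normalised reads in libraries labelled knockout, against 6506, 7449 and 3083 in controls, so that control 3 fell within the range of the libraries labelled knockout. P2ry12 had 465, 391 and 331 normalised reads in libraries labelled knockout, against 650, 740 and 386 in controls (log2 fold change -0.54, adjusted p = 0.42). Tmem119 had a log2 fold change of -0.73 (adjusted p = 0.539). No microglia marker was at 0 in all 6 libraries. In bulk RNA, fewer cells of a type and less RNA per cell cannot be told apart. Dock8, a guanine nucleotide exchange factor known from leukocytes, was among the genes that were lower, with 28.5, 26.4 and 32.6 normalised reads in libraries labelled knockout, against 78.5, 95.3 and 98.4 in controls (log2 fold change -1.48, adjusted p = 0.0318). It did not pass in any fit with 1 library left out. Plek and Nckap1l, also known from blood cells and chosen here after their values were seen, were lower by log2 fold changes of -1.09 (adjusted p = 0.0324) and -1.36 (adjusted p = 0.042). Plek passed only without the library labelled knockout 1, and Nckap1l only without the library labelled knockout 2 or without control 3. edgeR gave Nckap1l an adjusted p of 0.0528. The part of microglia in the values of these genes, of the complement genes and of the immediate early genes was not tested.

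The 10 oligodendrocyte markers tested were all below 0, with a median of -0.39 and 0 past the threshold, beside 0.835% of all genes tested. The 12 listed, which include 2 below the low-value filter, summed to 10698, 9550 and 14575 normalised reads in libraries labelled knockout, against 17000, 13208 and 10148 in controls, and the groups overlapped. Macrophage, oligodendrocyte precursor, olfactory bulb neuron, olfactory sensory axon, neuroblast, fibroblast, choroid plexus and ependymal markers also had 0 genes past the threshold. The 10 listed fibroblast markers summed to 508 to 824 in libraries labelled knockout and to 617 to 893 in controls. Of red blood cell markers 0 were tested, and 4 were at 0 in all 6 libraries.

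**Figure D3:**
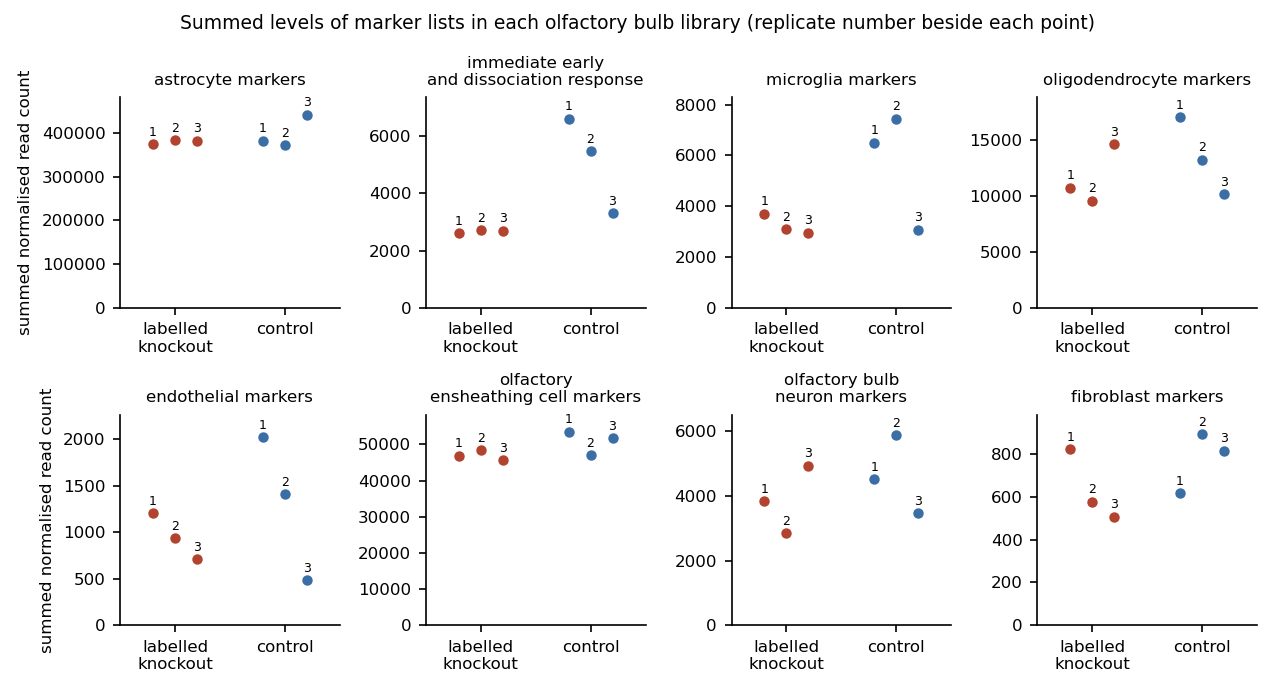
Summed normalised read counts of 8 marker lists in each olfactory bulb library, with the replicate number beside each point, libraries labelled knockout at left and controls at right. Every y axis starts at 0. Controls 1 and 2 lie above all libraries labelled knockout for immediate early and microglia genes, and control 3 lies near them, at 3309 and 3083.

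Other large differences fell outside these groups. On the higher side were Wee1, which brakes entry into mitosis (log2 fold change 1.58, adjusted p = 0.00366), and Tspan13, a tetraspanin gene (log2 fold change 1.39, adjusted p = 0.000906). Both passed in all 6 fits. Slc41a3, of a magnesium transporter family, Rimbp2, a presynaptic scaffold gene, and Spata6 had log2 fold changes of 1.71, 1.69 and 1.22 and were each lost without 1 or more libraries. For Slc41a3 and Spata6 these were the libraries labelled knockout 1 and 3, and for Rimbp2 any 1 of the libraries labelled knockout. Slc41a3 stood at 0.59, 0.75 and 1.24 in hippocampus, cortex and brainstem, where it did not pass. The part of the Aldh1l1-CreER transgene, carried under the knockout label only, in the values of Slc41a3 was not tested. Lmcd1, lost without the library labelled knockout 2, and the collagen gene Col9a3, lost without the library labelled knockout 1, had log2 fold changes of 1.15 and 1.22. Dlk1 and Mest, 2 of 15 imprinted genes tested, were higher at 2.11 (adjusted p = 0.0342) and 0.58 (adjusted p = 0.042), Mest losing its call without any 1 library. Dlk1 was lost without any 1 of the libraries labelled knockout or without control 2. The share of all genes tested that passed and were higher was 0.426%. Igfbp2, an IGF binding protein gene, was higher at 0.55 (adjusted p = 0.044) and passed only in the fit without control 3.

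On the lower side, Cxcl5, a chemokine gene, had 7.14, 26.4 and 10.03 normalised reads in libraries labelled knockout, against 85.2, 160 and 63.99 in controls (log2 fold change -2.49, SE 0.43, adjusted p = 0.00561). Cxcl5 was lost without control 2. Ppapdc1a (a lipid phosphatase gene), Fam163a and Scg3 (a granin of secretory vesicles) had log2 fold changes of -2.18, -1.41 and -0.72, and all 3 passed in every fit with 1 library left out. Gdpd2, a glycerophosphodiester phosphodiesterase gene and 1 of 6 tested, was at -2.08, lost without control 1. Hhatl, a relative of the Hedgehog acyltransferase and 1 of 11 Hedgehog pathway genes tested, was at -1.99, lost without the library labelled knockout 3 or without control 2. Banp, a nuclear DNA-binding protein gene, was at -1.87, lost without the library labelled knockout 1 or 2 or without control 1. The growth factor gene Hgf was at -1.40, with its call kept only without control 2. Entpd2, an ectonucleotidase that breaks down extracellular ATP, was lower at -1.03 (adjusted p = 0.0399), 1 of 11 genes of ATP and adenosine handling, and was lost without any 1 library. The share of all genes tested that passed and were lower was 0.408%.

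Of the 63 gene lists, 62 had a tested member and 29 of these had at least 1 gene past the threshold. The lists were chosen with earlier results of these data known, and genes such as Gfap, Clu and Apln are in more than 1 list. The tally is therefore a description only. The 33 with 0 included astrocyte transcription factors other than the NFI family (0 of 32), gap junction proteins (0 of 7), calcium signalling and G protein coupled receptors (0 of 22), secreted synapse regulators (0 of 17), interferon response (0 of 22), the circadian clock (0 of 17), cytosolic ribosomal proteins (0 of 60) and the nuclear-encoded respiratory chain (0 of 52). With 0.835% of all genes tested past the threshold, 0 in lists of these sizes is near that share and does not show an unchanged pathway. The medians of the ribosomal and respiratory lists were -0.04 and -0.02, beside -0.00253 over all genes tested.

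**Figure D4:**
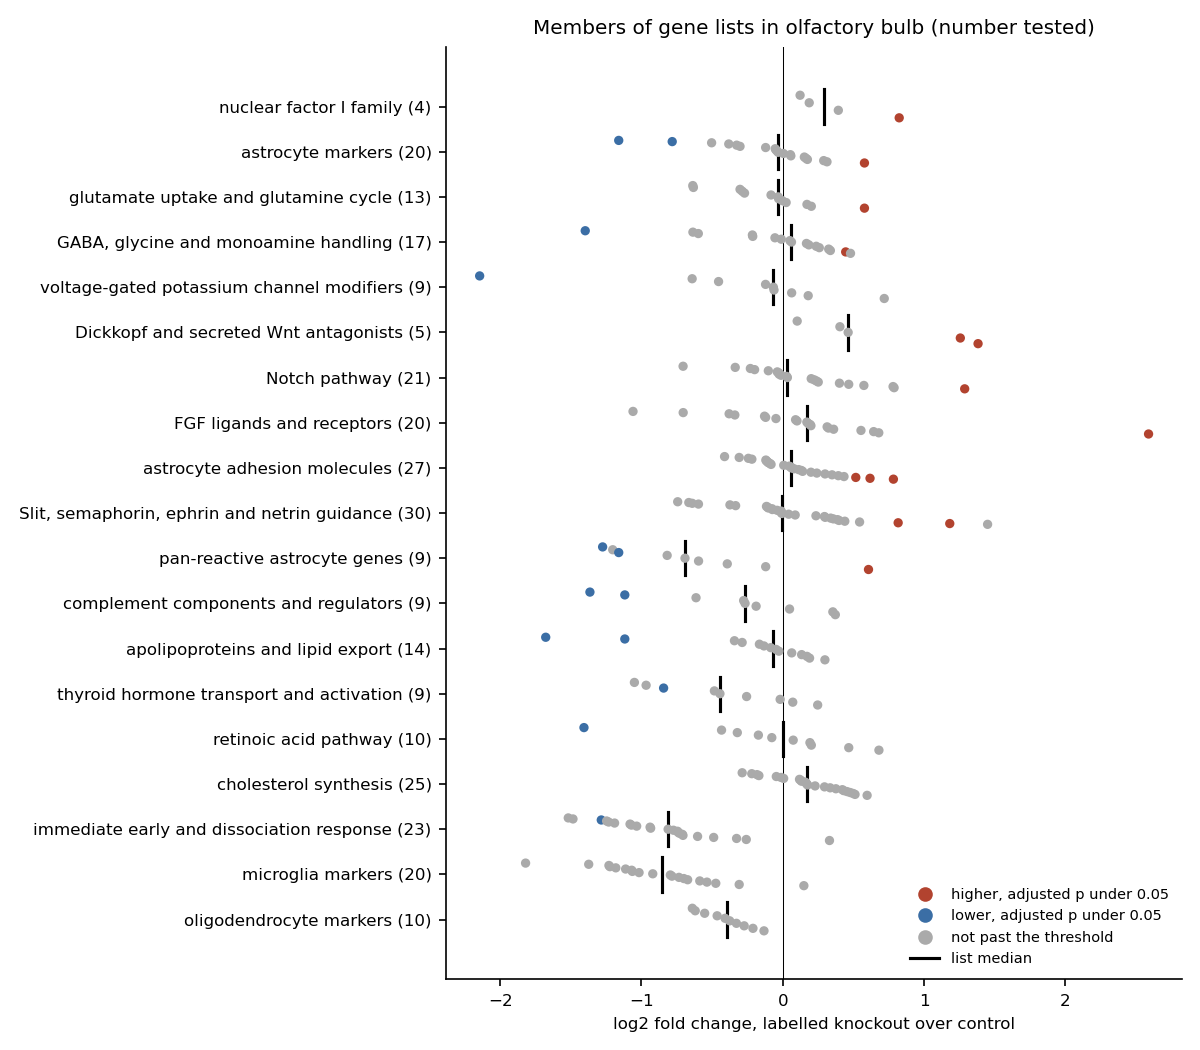
Log2 fold changes (libraries labelled knockout over controls) of the tested members of 19 gene lists in the olfactory bulb, with the number tested in brackets. Points are genes, red and blue where they passed higher and lower, and bars are list medians. Immediate early, microglia and pan-reactive lists have the lowest medians, at -0.81, -0.86 and -0.69, and Dickkopf and secreted Wnt antagonists have the highest, at 0.46.

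The same contrast in the other regions gives a view of which olfactory bulb differences recur, in libraries that the olfactory bulb fit did not use. In a fit of all 24 libraries, 318 of 12673 genes (2.51%) passed in hippocampus, 41 (0.324%) in cortex and 98 (0.773%) in brainstem. Of the 47 genes higher in the olfactory bulb, 41 were above 0 in hippocampus, 39 in cortex and 36 in brainstem, and 11, 4 and 5 of them passed there in the same direction. Of the 45 lower genes, 39 were below 0 in hippocampus, 42 in cortex and 23 in brainstem, and 8, 9 and 2 passed there in the same direction. Where 5 or fewer passed, they were Tex15, Notch3, Vim and Prss23 (higher, cortex), Dkk3, Nfia, Shisa9, Notch3 and Cadm1 (higher, brainstem), and Prelp and Hgf (lower, brainstem). Col9a3 passed the other way in hippocampus, where it was lower. All 3 other regions had the direction of the olfactory bulb for 49 of the 92, 28 higher and 21 lower. The share of all genes tested with the same direction was not computed, so these direction counts have no background beside them. The median log2 fold change of the 45 lower genes was -0.41 in hippocampus, -0.79 in cortex and -0.08 in brainstem, and that of the 47 higher genes was 0.63, 0.54 and 0.40 in the same order.

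Single genes show how the regions compare. Nfia had log2 fold changes of 0.96 in hippocampus, 0.72 in cortex and 1.10 in brainstem. Kcng4 was lower by -2.64 in hippocampus and -3.22 in cortex and stood at -0.45 in brainstem (adjusted p = 0.585). Gfap was lower in hippocampus (-1.70, adjusted p = 0.000171), with -0.91 in cortex (adjusted p = 0.1) and 0.42 in brainstem (adjusted p = 0.399). Tex15 was higher in hippocampus and cortex, at 3.77 and 3.05, and stood at -0.07 in brainstem. Dkk3 was higher in brainstem (1.66, adjusted p = 2.62e-05) and stood at -0.02 in cortex. Notch3 was higher in cortex and brainstem, at 1.36 and 1.49. Dio2 stood at 0.82 in brainstem (adjusted p = 0.0635), against its fall of -0.84 in the olfactory bulb.

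**Figure D5:**
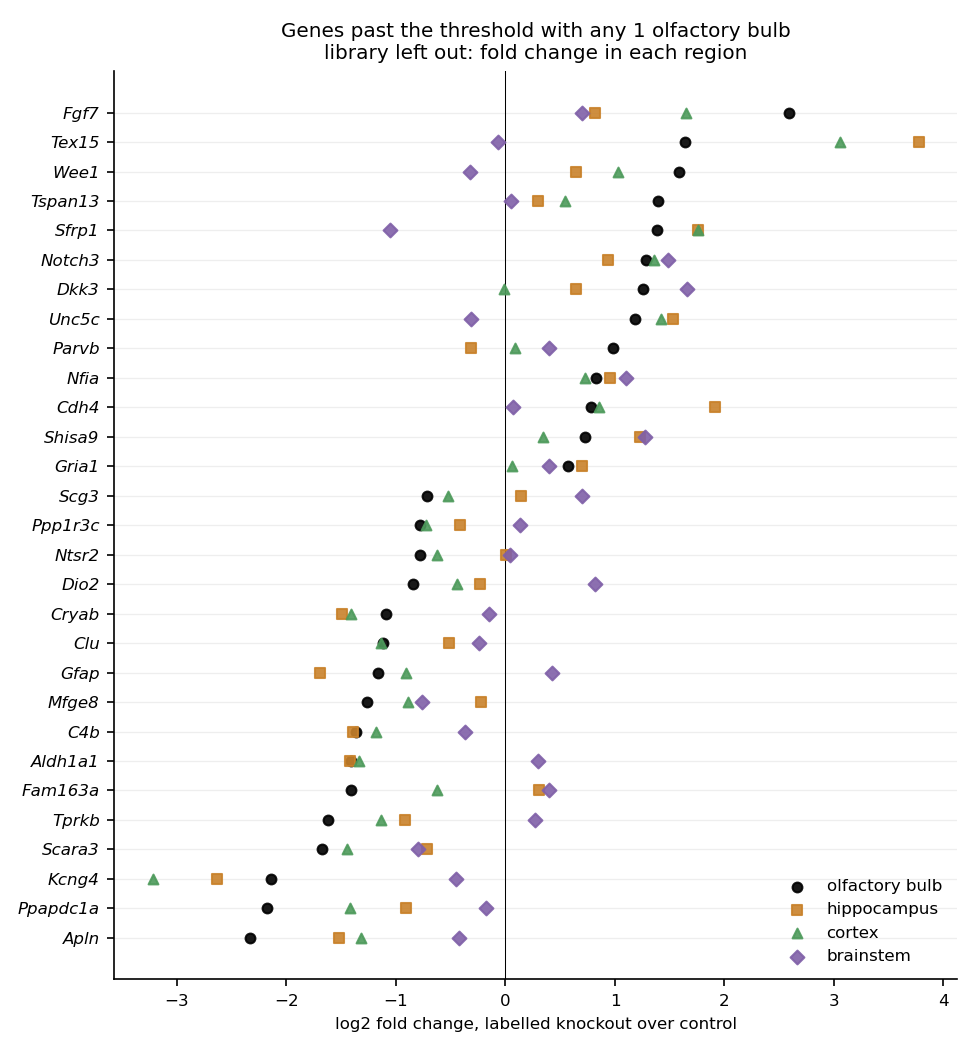
Log2 fold changes, libraries labelled knockout over controls, of the 29 genes that passed in the olfactory bulb with any 1 library left out, in each of the 4 regions (olfactory bulb as black circles). Nfia, Notch3 and Shisa9 lie above 0 and Apln, Kcng4 and Scara3 below 0 in all 4 regions, while Gfap, Dio2 and Aldh1a1 lie below 0 in the other regions shown except brainstem.

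The olfactory bulb effect was also set against the mean effect of the other 3 regions, gene by gene. Of 12673 genes 0 passed (0%) in limma, where 654 had an unadjusted p under 0.05, and edgeR called 1. The 5 with the smallest p were Fam84a, Col9a3, Chst1, Tprkb and Rimbp2. Fam84a had 294, 359 and 297 normalised reads in libraries labelled knockout of the olfactory bulb, against 231, 285 and 352 in controls, so the groups overlapped. Its log2 fold change was 0.14 in the olfactory bulb and 1.996, 1.79 and 1.95 in hippocampus, cortex and brainstem, a difference of -1.77 (SE 0.33, adjusted p = 0.104), and it was the gene that edgeR called (adjusted p = 0.0092). The brainstem value of Fam84a rests on few reads, with controls at 8.56, 6.10 and 12.9 normalised reads. The brainstem library labelled knockout 3 had 1090777 reads in all. Col9a3, a chain of type IX collagen, had 414, 268 and 335 normalised reads in libraries labelled knockout of the olfactory bulb, against 146, 124 and 154 in controls. Its log2 fold change was 1.22 there and -1.45, -0.42 and -0.65 in hippocampus, cortex and brainstem, a difference of 2.06 (SE 0.39, adjusted p = 0.104, or 0.0153 with replicate numbers as a block). Chst1, a carbohydrate sulfotransferase gene, and Tprkb had differences of -1.46 and -1.03 and Rimbp2 one of 1.80, each at an adjusted p of 0.61.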

How the data were processed

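RNA of sorted astrocytes (RNeasy Micro, 5 ng of total RNA, NuGEN Trio RNA-Seq, per the labels' protocols) gave 1 table per library. The submitters' processing notes name FastQC, STAR 2.5.0a, DESeq2 1.20.0 and mm10, without roles. The counting tool, annotation and filters are not given in the sources used here. The deposited values are a normalised signal: dividing each library by its smallest step gave whole reads for 100% of values (tolerance 0.01 read). Of 24421 names, 27 read as dates, 2 occurred more than once and 23350 matched GENCODE vM21, and mitochondrially encoded genes are not analysed here.

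Genes with at least 20 in at least 3 of the 6 libraries were tested on log2(value + 5) with limma 3.58.1 (R 4.3.3; intensity trend, robust moderation, 4 residual degrees of freedom), two-sided, with Benjamini-Hochberg adjustment over all genes tested and a threshold of 0.05. Adding 5 understates the fold changes of low genes. Regions were compared in 1 fit of all 24 libraries. edgeR 4.0.16, DESeq2 1.42.0 and voom were alternatives on recovered reads, and other added constants, filters, scalings, a replicate block and omission of each library were also tried. The 6-library fit and the regional difference were tried on simulated counts, with the spread estimated from all 24 libraries. The 6-library fit recovered 23 of 100 genes changed 2-fold and 76 of 100 changed 4-fold, with 7 false calls. The regional difference recovered 18 and 73 of 100, with 2 false calls.

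The gene lists and tests were chosen with earlier results of these data known. Named genes were the NFI family, 15 genes higher and 15 lower by fold change (mean of at least 50, groups apart), genes passing in all 6 fits with 1 library left out, up to 4 members a list that passed (otherwise the first tested, for lists described), and the 5 smallest p of the regional difference. Not every gene this rule names is reported here. Gene positions are those of GENCODE vM21 (mm10), and promoters are RefSeq's (GRCm38.p6). Figures were drawn with matplotlib.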

Additional observations from a re-analysis of the deposited data

How the results depend on the processing

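No named gene that passed in the olfactory bulb changed direction under any alternative tried, while the number that passed varied. Against 92 (47 higher, 45 lower), 25 passed with no low-value filter (13 and 12), 164 in DESeq2 (75 and 89), 50 with a log2 fold change of at least 1 also required (18 and 32), and 11 with all 24 libraries in 1 fit (2 and 9). Adding 1 or 20, a filter at 50, edgeR with TMM or RLE factors, voom and removal of Rn45s gave 80 to 93. With 1 library left out the numbers were 45 to 149, with 20 to 64 higher and 24 to 85 lower. Of the uncalled genes named, Frzb changed sign without the library labelled knockout 1, and with 1 library left out its log2 fold change was -0.054 to 0.348. Fgf1, Fosb and Slco1c1 passed in DESeq2. For the difference from the other regions, where 0 passed, edgeR called 1. The cause of these changes was not tested.

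The replicate numbers pair samples only by number. Same-numbered libraries deviated from their group means with correlations of 0.096, -0.024 and 0.020. With the replicate block 136 genes passed, 64 higher and 72 lower, and 1 (Col9a3) in the difference from the other regions. Depth was 4503269 to 9425474 reads a library, and a p that missed the threshold does not show that a gene did not differ.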
